A study of Mus musculus with 27 samples.

Results

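The 34 genes described here make cholesterol and fatty acids or control their making, uptake and export. They were chosen by name as a pathway group, and each symbol was matched to the gene column of the deposited tables, where all 34 were found among 56941 genes. All 34 also passed the filter on low counts, which left 24629 genes for testing. By role they fall into 18 enzymes of sterol synthesis, 5 genes of sterol sensing, 5 genes of sterol transport and of the LXR arm, and 6 enzymes of fatty acid synthesis. RNA of whole lungs was sequenced after polyA selection, from wild-type male C57Bl/6 mice (C57Bl/6J by the genotype label) aged 7 to 8 weeks. Every mouse received 5 oropharyngeal instillations, at intervals of 2 to 3 days, of 50 µl holding either 10 µg of an extract of house dust mite (HDM, which inflames the airways as an allergen) or phosphate-buffered saline (PBS) alone. After 24 h each mouse was given 100 µl of either saline (SAL) or combustion products (CP, made by burning plywood, plastic and paper) suspended at 2 mg per ml, and the lungs were taken 24 h after that. The groups were PBS_SAL with 7 libraries, PBS_CP with 7, HDM_SAL with 6 and HDM_CP with 7, and libraries are called by group and label number. The labels read as 1 mouse per library without stating it, so p-values measure the spread between these libraries.

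Cells make cholesterol from acetyl-CoA through mevalonate, the isoprenoids, squalene and a series of sterol intermediates. When sterol in the endoplasmic reticulum is low, the escort protein SCAP carries the transcription factors SREBP1 and SREBP2 to the Golgi, where they are cut and released to switch on synthesis and uptake genes, while INSIG proteins hold SCAP back when sterol is high. Oxysterols instead activate the LXR receptors, which switch on the cholesterol exporters and a ligase that degrades lipoprotein receptors. In the lung, alveolar type 2 cells make the lipid of surfactant, and macrophages take up and export much of it.

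Promoter sequences of 4 synthesis genes that rose and of the exporter that fell in the results that follow are shown first, because SREBP is known to act beside the CCAAT-binding factor NF-Y. Of the 34 genes, 27 had an entry among RefSeq promoter windows of 300 bases (250 before to 50 after an annotated start, build GRCm38.p6), with 36 windows in all. Fdps, Fdft1, Sqle, Stard4, Abcg1, Scd1 and Scd2 were not matched. The letters of a sterol response element (TCACNCCAC), the NF-Y letters CCAAT, the E-box letters CACGTG, the GC box GGGCGG and the LXR element DR4 (AGGTCA repeated directly with 4 bases between) were searched on both strands. The sequences printed here are read 5′ to 3′ along the gene's strand. Capitals mark exact matches to the sterol response element letters, CCAAT (or ATTGG, the same letters on the other strand) and the E-box.
Hmgcs1 (chr13:119690101-119690400, plus strand): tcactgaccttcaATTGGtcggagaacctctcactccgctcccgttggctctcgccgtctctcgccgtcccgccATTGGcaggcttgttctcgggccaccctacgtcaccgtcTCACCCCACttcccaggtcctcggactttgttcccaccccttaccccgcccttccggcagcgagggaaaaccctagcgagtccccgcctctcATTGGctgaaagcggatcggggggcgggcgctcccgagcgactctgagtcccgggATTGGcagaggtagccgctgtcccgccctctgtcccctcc
Idi1 (chr13:8885356-8885655, plus strand): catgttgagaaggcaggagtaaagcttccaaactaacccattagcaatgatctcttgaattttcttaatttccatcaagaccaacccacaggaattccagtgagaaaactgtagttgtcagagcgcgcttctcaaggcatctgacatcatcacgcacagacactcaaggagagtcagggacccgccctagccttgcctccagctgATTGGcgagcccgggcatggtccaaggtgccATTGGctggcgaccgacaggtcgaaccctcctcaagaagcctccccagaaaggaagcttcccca
Cyp51 (chr5:4104648-4104947, minus strand): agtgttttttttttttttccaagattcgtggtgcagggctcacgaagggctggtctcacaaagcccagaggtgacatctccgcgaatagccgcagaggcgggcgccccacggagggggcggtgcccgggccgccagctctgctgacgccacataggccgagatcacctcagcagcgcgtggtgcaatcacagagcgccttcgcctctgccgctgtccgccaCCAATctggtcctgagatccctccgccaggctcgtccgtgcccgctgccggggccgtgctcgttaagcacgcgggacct
Msmo1 (chr8:64733529-64733828, minus strand): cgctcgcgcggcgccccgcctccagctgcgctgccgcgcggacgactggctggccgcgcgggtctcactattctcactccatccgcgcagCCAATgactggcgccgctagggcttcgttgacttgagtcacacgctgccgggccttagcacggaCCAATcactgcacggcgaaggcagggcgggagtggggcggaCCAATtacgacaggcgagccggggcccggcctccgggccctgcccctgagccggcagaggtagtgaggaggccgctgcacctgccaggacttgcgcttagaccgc
Abca1 (chr4:53159846-53160145, minus strand): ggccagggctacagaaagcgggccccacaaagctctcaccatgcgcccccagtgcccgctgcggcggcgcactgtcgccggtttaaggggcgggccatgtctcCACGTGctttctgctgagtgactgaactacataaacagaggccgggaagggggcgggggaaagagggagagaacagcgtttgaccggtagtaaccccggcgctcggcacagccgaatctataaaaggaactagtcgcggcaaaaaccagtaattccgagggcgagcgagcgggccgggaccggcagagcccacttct

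Hmgcs1 held 1 exact match to the sterol response element letters, 137 bases before its start, and 4 CCAAT matches. The capitals in its window do not overlap each other. It was the only 1 of the 27 matched genes with those exact letters, which 1.44% of all genes in the promoter table held. CCAAT was found in 14 of the 15 matched synthesis genes and in 21 of the 27 matched genes, against 41.1% of all genes and 37.4% of all 32851 windows. Idi1 held 2 CCAAT matches, Msmo1 3 and Cyp51 1. Abca1, the exporter, held no CCAAT in its window and 1 E-box, 147 bases before the start. Mylip, the other gene that fell in the results that follow, held 3 CCAAT matches. Mvk, a synthesis gene that did not pass there, held 5. CCAAT in the window thus did not separate genes that rose from the rest. An E-box was present in 6 of the 27 matched genes and in 8.09% of all genes, and the GC box in 22 of 27 and in 38.2%. The exact DR4 letters were in 0 of 27 matched genes and in 0.0148% of all genes. With letters that rare, 0 of 27 genes holds no information on LXR elements. A match is a run of letters in this window and was not tested as a binding site. Only the exact letters were searched, so variants of an element were missed. A gene without a match cannot be taken to lack the element.

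Library totals of the deposited estimated counts ran from 56.3 M to 84.5 M (M, mega), and 3 libraries (PBS_CP 102, PBS_SAL 104 and PBS_SAL 105) were under 60 M. Levels are given either as counts per M scaled by the trimmed mean of M values (CPM), for comparing 1 gene between libraries, or as transcripts per M (TPM), which account for length and were used to compare genes. Some libraries stood apart from their group. PBS_CP 57 held a summed 326 TPM of 6 goblet cell markers, against 5.4 to 13.9 TPM in the other PBS libraries, and HDM_SAL 52 (35.4 TPM) and HDM_CP 66 (53.6 TPM) were low among the HDM libraries. HDM_SAL 50, 54 and 99 had 3.09% to 3.86% of counts in mitochondrial genes, against 2.08% to 2.79% in the rest. HDM_SAL 54 had the lowest endothelial marker sum of all libraries (1301 TPM, against 2028 to 2288 TPM in PBS_SAL). Its club cell marker sum was the highest (138461 TPM). It also had the lowest Abca1 and Mylip levels of HDM_SAL, and the part of these cells in those levels was not tested. The labels check of tissue was made with 10 alveolar type 2 markers, whose summed level lay between 31801 and 41404 TPM in all libraries and overlapped between all groups. Of 9 fat cell markers, those that define the cell were at or near 0: Adipoq reached at most 1.22 TPM, Plin1 1.27 TPM, Retn 0.99 TPM and Ucp1 0.26 TPM, and Lep was at 0 in 26 of 27 libraries. The other 4 were measurable, with at most 1.99 TPM for Cidea, 2.73 to 13.3 TPM for Cidec, 0.46 to 16.2 TPM for Cfd and 26.6 to 67.8 TPM for the lipase Lipe. The 9 summed to 34.8 to 79.0 TPM in PBS_SAL and 41.5 to 78.7 TPM in HDM_CP. Fewer cells of a type and less RNA per cell cannot be told apart in whole lung.

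By TPM over all 27 libraries, fatty acid genes held the top of the order. Scd1, the desaturase that makes oleic and palmitoleic acid, averaged 708 TPM, followed by its paralog Scd2 with 296 TPM, the citrate lyase Acly with 123 TPM and the fatty acid synthase Fasn with 97.5 TPM. Reads of Scd1 and Scd2 may be shared between them, since the 2 genes are similar in sequence. Srebf2, which encodes SREBP2, followed with 89.8 TPM. The next neighbours, the isoprenoid enzyme Fdps with 88.8 TPM and the first committed enzyme of the mevalonate route, Hmgcs1, with 86.1 TPM, did not differ from it beyond their spread between libraries. Srebf1, which encodes SREBP1, stood at 67.3 TPM, and Nr1h3, which encodes LXR-alpha, at 49.4 TPM. Most other sterol enzymes lay between 14.7 TPM (Lss) and 41.9 TPM (Msmo1). The lowest were Hsd17b7 with 8.96 TPM and Elovl6, an elongase of palmitic acid, with 3.53 TPM.

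Mice given both HDM and CP differed most from mice given neither. Between HDM_CP and PBS_SAL, 14 of the 34 genes rose and 2 fell (edgeR's quasi-likelihood test, adjusted over all genes), which is 16 called, beside 14.5% of all genes tested. The 14 comprised 10 of the 18 synthesis enzymes, 3 of the 6 fatty acid enzymes and the sterol carrier Stard4, and the share of all genes called higher was 8.61%. The 2 that fell, beside 5.88% of all genes called lower, were the exporter Abca1 and the ligase Mylip. The median log2 fold change was 0.35 for synthesis, 0.35 for fatty acid synthesis, -0.02 for sensing and -0.21 for transport and LXR, against 0.01 over all genes. HDM_CP and PBS_SAL did not overlap for 6 genes (Hmgcs1, Idi1, Fdps, Sqle, Cyp51 and Mylip), beside 3.24% of all genes.

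**Figure D1:**
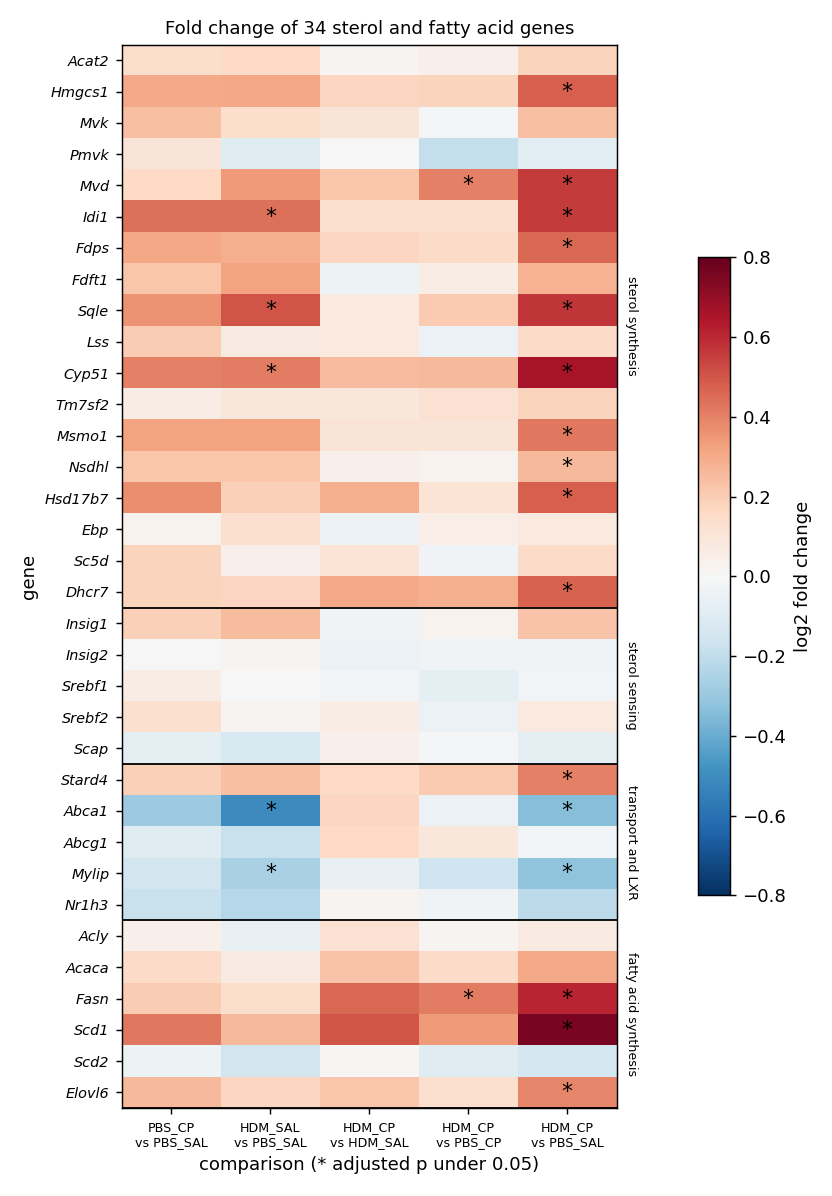
Log2 fold change of the 34 genes (rows, grouped by role) in 5 comparisons (columns). Red is higher and blue lower in the first-named group, and an asterisk marks an adjusted p under 0.05. The last column (HDM_CP against PBS_SAL) carries 16 asterisks, 14 on positive values, and both columns for CP against SAL carry none.

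Of the early mevalonate enzymes, Hmgcs1 condenses acetoacetyl-CoA with acetyl-CoA (chromosome 13, 120151915 to 120169796, GRCm39). Its level was 92.0, 109.9 and 117.6 CPM (lowest, median and highest library) in PBS_SAL and 127.9, 146 and 181.5 CPM in HDM_CP. All 7 HDM_CP libraries were above the highest PBS_SAL library, and the gene rose by 0.48 ± 0.10 (log2, SE, adjusted p = 0.00087). Mvd, which decarboxylates mevalonate diphosphate, had 9.80, 12.4 and 14.9 CPM in PBS_SAL and 14.0, 18.6 and 23.5 CPM in HDM_CP. It rose by 0.56 ± 0.11 (adjusted p = 0.0010), with 6 of 7 HDM_CP libraries above all of PBS_SAL. Between these steps the enzymes did not pass the test. Mvk, mevalonate kinase, had a log2 fold change of 0.24 ± 0.10 (adjusted p = 0.12), and Pmvk, the next kinase, one of -0.09 ± 0.07 (adjusted p = 0.44). Acat2, the cytosolic thiolase at the head of the pathway, had 0.18 ± 0.08 (adjusted p = 0.14).

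Of the isoprenoid steps, Idi1 and Fdps rose. Idi1 isomerises isopentenyl diphosphate (chromosome 13, 8935537 to 8942487, GRCm39) and had 34.7, 41.8 and 48.1 CPM in PBS_SAL against 56.6, 61.9 and 70.4 CPM in HDM_CP. The groups were fully apart, and the rise of 0.56 ± 0.10 on the log2 scale had an adjusted p of 0.00026. Fdps, farnesyl diphosphate synthase (chromosome 3, 89000895 to 89009266, GRCm39), had 39.5, 42.8 and 50.8 CPM in PBS_SAL and 54.5, 60.9 and 70.5 CPM in HDM_CP. It too was apart in all 7 libraries, with a rise of 0.46 ± 0.10 (adjusted p = 0.0018). Fdft1, squalene synthase, branches from there to sterols and had a log2 fold change of 0.28 ± 0.10 with an adjusted p of 0.053. That value lay close to the threshold, and Fdft1 passed it in 17 of 41 alternative analyses.

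Squalene is then oxidised and closed into the sterol ring. Sqle, squalene epoxidase, a rate-limiting enzyme of the later pathway (chromosome 15, 59186926 to 59203041, GRCm39), had 26.8, 33.4 and 40.4 CPM in PBS_SAL and 44.8, 47.7 and 59.0 CPM in HDM_CP. It was higher in every HDM_CP library than in any PBS_SAL library, by 0.57 ± 0.12 (adjusted p = 0.0017). Lss, the cyclase that follows, had 0.15 ± 0.10 and did not pass (adjusted p = 0.39). Cyp51, the demethylase of lanosterol (chromosome 5, 4131145 to 4154746, GRCm39), had 25.6, 33.2 and 38.8 CPM in PBS_SAL and 42.2, 52.8 and 65.0 CPM in HDM_CP. Its groups were apart as well, and its rise of 0.66 ± 0.11 (adjusted p = 0.00015) was the largest among the 18 synthesis enzymes, at 58.0%.

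Of the enzymes that trim the ring, 4 rose. Msmo1, the sterol C4 methyl oxidase, had 31.0, 34.6 and 39.2 CPM in PBS_SAL and 39.2, 47.0 and 51.1 CPM in HDM_CP. It rose by 0.42 ± 0.10 (adjusted p = 0.0038), and 6 of 7 HDM_CP libraries lay above all of PBS_SAL. Hsd17b7, which reduces the ketone left at C3, had 13.2, 14.8 and 19.8 CPM in PBS_SAL and 16.9, 23.9 and 26.0 CPM in HDM_CP, so the groups overlapped. Its rise was 0.48 ± 0.12 (adjusted p = 0.0059). Dhcr7, the reductase of the last step, had 11.8, 15.3 and 18.4 CPM in PBS_SAL and 18.1, 21.9 and 24.5 CPM in HDM_CP. The rise of 0.47 ± 0.10 (adjusted p = 0.0020) placed 6 of 7 HDM_CP libraries above the PBS_SAL range.

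Nsdhl, which removes the C4 carboxyl group and is encoded on the X chromosome, rose least of the 10. Its levels were 13.6, 16.8 and 19.6 CPM in PBS_SAL and 17.8, 20.7 and 21.7 CPM in HDM_CP, with a rise of 0.26 ± 0.09 (adjusted p = 0.043). The Nsdhl call was lost, with adjusted p up to 0.11, when any 1 of HDM_CP 49, 66, 67, 96 or 98, HDM_SAL 52 or PBS_SAL 64, 79, 80, 81 or 105 was left out. The remaining late enzymes did not pass. Log2 fold changes were 0.18 ± 0.09 for the reductase Tm7sf2, 0.08 ± 0.05 for the isomerase Ebp and 0.15 ± 0.06 for the desaturase Sc5d.

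**Figure D2:**
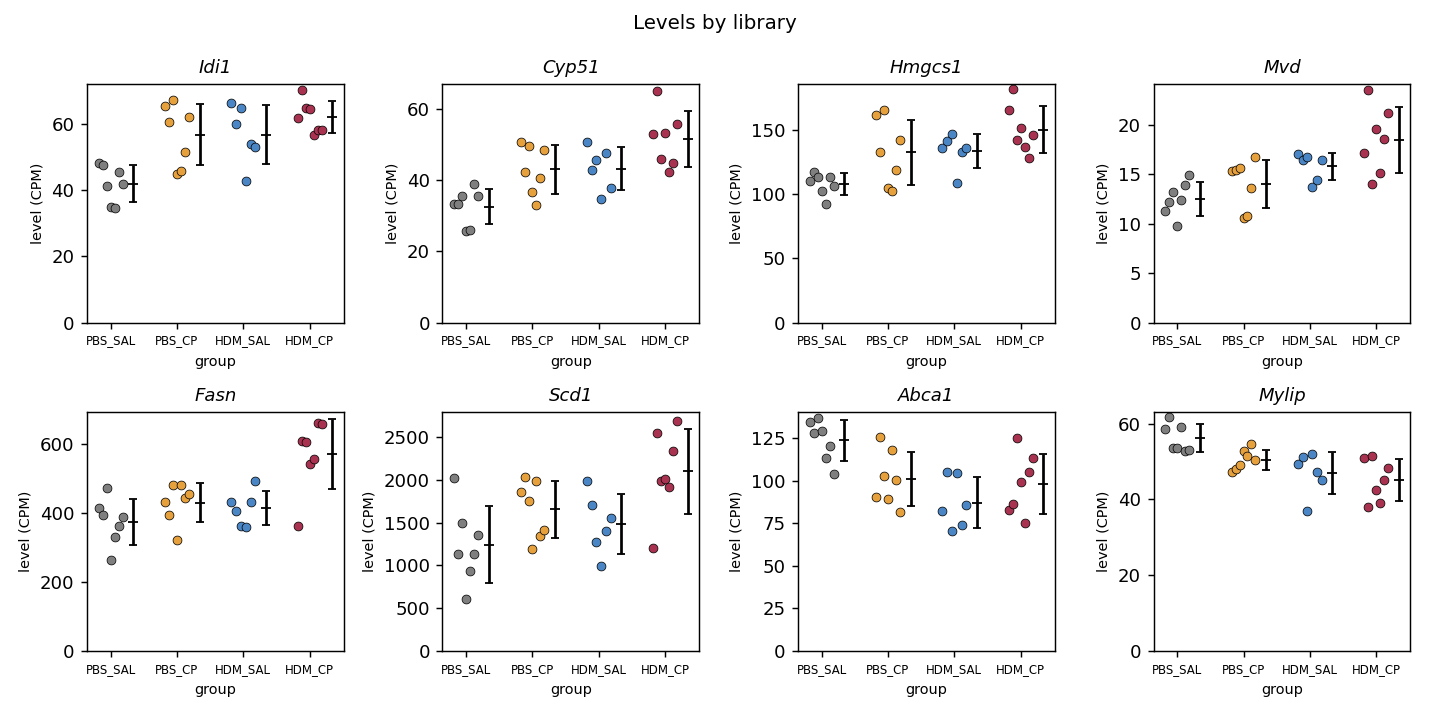
Level (CPM, y axis from 0) of 8 of the genes in each library by group (x axis). Points are libraries, and the bar beside each group is the mean with the SD. Idi1, Cyp51 and Hmgcs1 show no overlap of HDM_CP (dark red) with PBS_SAL (grey), Mylip lies lower without overlap, and Scd1 spreads from 604 to 2019 CPM within PBS_SAL alone.

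Fatty acid enzymes divided into 3 that rose and 3 that did not pass. Fasn had 264, 388 and 473 CPM in PBS_SAL and 362, 606 and 660 CPM in HDM_CP. It rose by 0.61 ± 0.12 (adjusted p = 0.00070), and the 1 HDM_CP library inside the PBS_SAL range was HDM_CP 45. Scd1 had 604, 1138 and 2019 CPM in PBS_SAL and 1199, 2011 and 2690 CPM in HDM_CP, and 3 of 7 HDM_CP libraries were above all of PBS_SAL. Its rise of 0.76 ± 0.20 (adjusted p = 0.011) was the largest of the 34 genes and also had the largest SE. Elovl6 had 7.19, 7.42 and 9.88 CPM in PBS_SAL and 7.10, 10.3 and 13.0 CPM in HDM_CP, with a rise of 0.39 ± 0.11 (adjusted p = 0.014) over groups that overlapped at both ends. Without the 3 libraries under 60 M its adjusted p was 0.074. Acaca, which makes malonyl-CoA, had 0.30 ± 0.11 (adjusted p = 0.074), Acly 0.07 ± 0.07 (adjusted p = 0.64) and Scd2 -0.14 ± 0.10 (adjusted p = 0.42). The paralogs thus had values of opposite sign, and only Scd1 was called.

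In the transport and LXR class, Stard4 had a positive value and the other 4 genes had negative ones. Stard4, a cytosolic sterol carrier that SREBP2 is known to switch on, had 46.9, 55.2 and 59.9 CPM in PBS_SAL and 58.8, 70.0 and 83.1 CPM in HDM_CP. It rose by 0.40 ± 0.09 (adjusted p = 0.0028), with 6 of 7 HDM_CP libraries above the PBS_SAL range. Mylip, the LXR-controlled ligase (chromosome 13, 45543218 to 45565498, GRCm39), had 52.9, 53.7 and 61.9 CPM in PBS_SAL and 37.95, 45.2 and 51.5 CPM in HDM_CP. Every HDM_CP library was below every PBS_SAL library, and Mylip fell by 0.32 ± 0.07 in log2 terms (adjusted p = 0.0024). Abca1, which exports cholesterol to apolipoprotein A-I (chromosome 4, 53030787 to 53159895, GRCm39), had 104, 128 and 137 CPM in PBS_SAL and 74.8, 99.2 and 125 CPM in HDM_CP. All 7 HDM_CP libraries were below the PBS_SAL median and 4 were below its range, with a fall of 0.34 ± 0.11 (adjusted p = 0.042). The Abca1 call was lost, with adjusted p up to 0.11, without any 1 of HDM_CP 45, 49, 67 or 96 or PBS_SAL 61, 64, 79, 80 or 104. It was also lost, at an adjusted p of 0.060, in a fit with a block for each run of library numbers.

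The partner exporter Abcg1 did not follow. Its level was 74.2, 95.2 and 107.5 CPM in PBS_SAL and 73.4, 88.1 and 107.6 CPM in HDM_CP, nearly the same range, and its log2 fold change was -0.02 ± 0.10 (adjusted p = 0.95). Nr1h3 had -0.21 ± 0.08 (adjusted p = 0.064) and passed in 9 of 41 alternative analyses.

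The sensing genes had small values. Srebf2 had 178, 190.4 and 211 CPM in PBS_SAL and 190.4, 205 and 214 CPM in HDM_CP, and a log2 fold change of 0.08 ± 0.04 (adjusted p = 0.25). Srebf1 had 102, 112 and 118 CPM against 96.9, 105 and 129 CPM in the same groups, with -0.02 ± 0.06 (adjusted p = 0.90). Transcript levels do not measure the cutting and release of the SREBP proteins. Insig1, itself an SREBP target that closes the feedback loop, had 81.4, 84.4 and 89.3 CPM in PBS_SAL and 82.9, 98.1 and 115 CPM in HDM_CP. With 6 of 7 HDM_CP libraries above the PBS_SAL range, its value was 0.23 ± 0.09 (adjusted p = 0.089). Insig2 had -0.03 ± 0.04 and Scap -0.07 ± 0.04, and neither passed.

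HDM alone moved fewer of these genes. Between HDM_SAL and PBS_SAL, 3 synthesis enzymes rose and Abca1 and Mylip fell, 5 of 34 genes beside 5.44% of all genes tested (3.19% higher and 2.25% lower). Idi1 had 42.7, 57.0 and 66.3 CPM in HDM_SAL and rose by 0.44 ± 0.10 (adjusted p = 0.013), with 5 of 6 libraries above the PBS_SAL range. Sqle had 36.4, 44.8 and 65.6 CPM and rose by 0.50 ± 0.13 (adjusted p = 0.020), and Cyp51 had 34.6, 44.2 and 50.6 CPM and rose by 0.41 ± 0.12 (adjusted p = 0.034). Both overlapped with PBS_SAL. Abca1 had 70.6, 84.2 and 105 CPM in HDM_SAL, below the PBS_SAL median in all 6 libraries, and fell by 0.51 ± 0.12 (adjusted p = 0.010). Mylip had 37.0, 48.3 and 52.1 CPM, fully below PBS_SAL, and fell by 0.26 ± 0.07 (adjusted p = 0.037). The groups did not overlap for Mylip and Insig1, 2 of 34 genes beside 1.97% of all genes. Insig1 had 89.6, 99.5 and 119 CPM in HDM_SAL and 0.25 ± 0.09 (adjusted p = 0.10).

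These 5 calls differed in how far they depended on single libraries and settings. Over 41 alternatives Abca1 was called in 40, Idi1 in 39, Sqle in 36, Cyp51 in 29 and Mylip in 28. Without HDM_SAL 50, 54 and 99, the 3 with the highest mitochondrial share, 0 of 34 genes were called. That fit takes out 3 of the 6 HDM_SAL libraries and so has less power. How many of all genes it called is not given here, so the 0 cannot be judged against them. The log2 fold changes were then 0.31 for Idi1 (adjusted p = 0.46), 0.18 for Sqle (adjusted p = 0.79), 0.24 for Cyp51 (adjusted p = 0.70), -0.33 for Abca1 (adjusted p = 0.50) and -0.18 for Mylip (adjusted p = 0.56). The part of that share in the result was not tested. Without HDM_SAL 50 or 54, or PBS_SAL 80, 2 genes were called, and without HDM_SAL 99 or PBS_SAL 61, 64 or 81, 3 were. Without HDM_SAL 72, whose 18 synthesis genes were all at or below their group mean, 9 were called, with Hmgcs1, Fdps, Fdft1 and Msmo1 added. With a block for each run of library numbers, 4 genes were called: Idi1, Sqle and Abca1 kept their calls, Cyp51 (adjusted p = 0.054) and Mylip (adjusted p = 0.071) lost theirs, and Msmo1 passed (adjusted p = 0.047). Median log2 fold changes were 0.21 for synthesis, 0.11 for fatty acid synthesis, 0.02 for sensing and -0.23 for transport and LXR, against 0.01 over all genes.

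CP alone called none of the 34 genes against PBS_SAL, beside 0.00812% of all genes tested (2 genes), and 18 of the 34 had an unadjusted p under 0.05, as did 1343 of the 24629 genes. DESeq2 called 1, Idi1. Idi1 had 44.8, 60.7 and 67.1 CPM in PBS_CP and 0.44 ± 0.10 (adjusted p = 0.22), with 5 of 7 libraries above the PBS_SAL range. Cyp51 had 32.8, 42.1 and 50.6 CPM and 0.40 ± 0.11 (adjusted p = 0.41), also with 5 of 7 libraries above that range. Both overlapped with PBS_SAL through the libraries at their low end. Msmo1 had 33.7, 44.9 and 52.4 CPM in PBS_CP and 0.32 ± 0.10 (adjusted p = 0.53), and Fdps had 44.4, 56.4 and 64.2 CPM and 0.31 ± 0.10 (adjusted p = 0.56). On the export side, Abca1 had 81.8, 100.4 and 126 CPM and -0.29 ± 0.11 (adjusted p = 0.81), with 7 of 7 libraries below the PBS_SAL median. No gene of the 34 was without overlap, beside 0.199% of all genes. The class medians were 0.22 for synthesis, 0.18 for fatty acid synthesis, 0.06 for sensing and -0.15 for transport and LXR, against 0.00 over all genes. HDM_SAL, PBS_CP and HDM_CP were all set against the same PBS_SAL libraries, so these values are given side by side and not as independent evidence of each other.

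Within HDM mice, CP called none of the 34 against HDM_SAL, beside 0.00406% of all genes tested (1 gene). An unadjusted p under 0.05 was found for 5 of the 34 and for 2388 genes, and DESeq2 called 1, Fasn. Fasn had 359, 418 and 492 CPM in HDM_SAL, so that 6 of 7 HDM_CP libraries lay above the HDM_SAL range, and 0.46 ± 0.12 (adjusted p = 0.17). HDM_CP 45 alone lay inside that range, and without it Fasn was called in edgeR's test. Dhcr7 had 15.1, 16.95 and 19.5 CPM in HDM_SAL and 0.30 ± 0.11 (adjusted p = 0.31), with all 7 HDM_CP libraries above the HDM_SAL median. Scd1 had 995, 1476 and 1991 CPM in HDM_SAL and 0.50 ± 0.21 (adjusted p = 0.43), and Hsd17b7 had 15.6, 17.9 and 22.6 CPM and 0.29 ± 0.12 (adjusted p = 0.43). No gene of the 34 was without overlap, beside 0.158% of all genes. The medians were 0.10 for synthesis, 0.23 for fatty acid synthesis, -0.02 for sensing and 0.16 for transport and LXR, against 0.00 over all genes.

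Between HDM_CP and PBS_CP, the HDM effect in mice given CP, 2 genes rose and none fell, beside 7.87% of all genes tested (5.60% higher and 2.27% lower). Mvd had 10.6, 15.4 and 16.8 CPM in PBS_CP and rose by 0.40 ± 0.11 (adjusted p = 0.028), with 5 of 7 HDM_CP libraries above the PBS_CP range. Fasn had 322, 442 and 482 CPM in PBS_CP and rose by 0.41 ± 0.12 (adjusted p = 0.031), with 6 of 7 above. Both calls were lost, 0 of 34 called, without HDM_CP 49 or 98 or PBS_CP 75, and 1 of them was lost without HDM_CP 67 or 97 or PBS_CP 58, 76 or 101. Adjusted p reached 0.089 for Mvd and 0.10 for Fasn over 41 alternatives. With a block for each run of library numbers, Dhcr7 also passed (0.32, adjusted p = 0.028). Abca1 had -0.05 ± 0.11 here (adjusted p = 0.89) and Mylip -0.16 ± 0.07 (adjusted p = 0.17). No gene of the 34 was without overlap, beside 1.72% of all genes. The medians were 0.10, 0.14, -0.03 and -0.03 for synthesis, fatty acid synthesis, sensing and transport and LXR, against 0.00 over all genes.

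The CP effect averaged over HDM and PBS mice was chosen with the direction of the 2 CP comparisons already known. In it, 0 of the 34 genes were called, beside 0.0487% of all genes tested (12 genes, 0.0406% higher). An unadjusted p under 0.05 was found for 19 of the 34 and for 2178 genes. DESeq2 called 4 (Idi1, Cyp51, Hsd17b7 and Fasn), and the fit with a block for each run of library numbers called 2 (Idi1 and Cyp51). How many of all genes those fits called is not given here, so the 4 and the 2 have no share beside them. Without HDM_CP 45, 1 gene (Fasn) was called, and without HDM_SAL 50, 54 and 99, 1 gene (Fdps) was. Cyp51 had 0.33 ± 0.08 (adjusted p = 0.12), Idi1 0.28 ± 0.07 (adjusted p = 0.13), Fasn 0.33 ± 0.09 (adjusted p = 0.14) and Hsd17b7 0.33 ± 0.09 (adjusted p = 0.15). Whether HDM altered the CP effect was tested by the interaction, which called 0 of the 34 genes and 0% of all genes, and 0 of the 34 by DESeq2. An unadjusted p under 0.05 was found for 2 of the 34 and for 1571 genes. Those 2 were Abca1, with an interaction of 0.46 ± 0.16 (adjusted p = 0.74), and Idi1, with -0.31 ± 0.14 (adjusted p = 0.78). Abca1 had -0.29 for CP in PBS mice and 0.17 ± 0.12 for CP in HDM mice, and Idi1 had 0.44 and 0.13 ± 0.10. Fdft1 had an interaction of -0.26 ± 0.14 and Abcg1 of 0.26 ± 0.14, with adjusted p of 0.79 for each.

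Summed over the 18 synthesis enzymes, the level was 446.3, 524.9 and 559.6 TPM (lowest, median and highest) in PBS_SAL and 607.5, 655.7 and 734.6 TPM in HDM_CP. The 2 groups did not overlap. PBS_CP lay between them with 505.8, 625.3 and 708.9 TPM, and HDM_SAL with 506.7, 597.9 and 636.5 TPM, each overlapping both. The 6 fatty acid enzymes summed to 732, 1089 and 1492 TPM in PBS_SAL and 982, 1550 and 1758 TPM in HDM_CP, where Scd1 made up most of the sum and the groups overlapped. The 5 transport and LXR genes summed to 163, 178 and 184 TPM in PBS_SAL, 149, 162 and 177 TPM in PBS_CP, 114, 156 and 169 TPM in HDM_SAL and 141, 162 and 182 TPM in HDM_CP. That sum holds Stard4, which had the opposite sign to the other 4. The synthesis genes of 1 library tended to lie on 1 side of their group means. In 7 of 27 libraries 15 or more of the 18 were above the mean of their own group, and in 6 libraries 3 or fewer were.

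**Figure D3:**
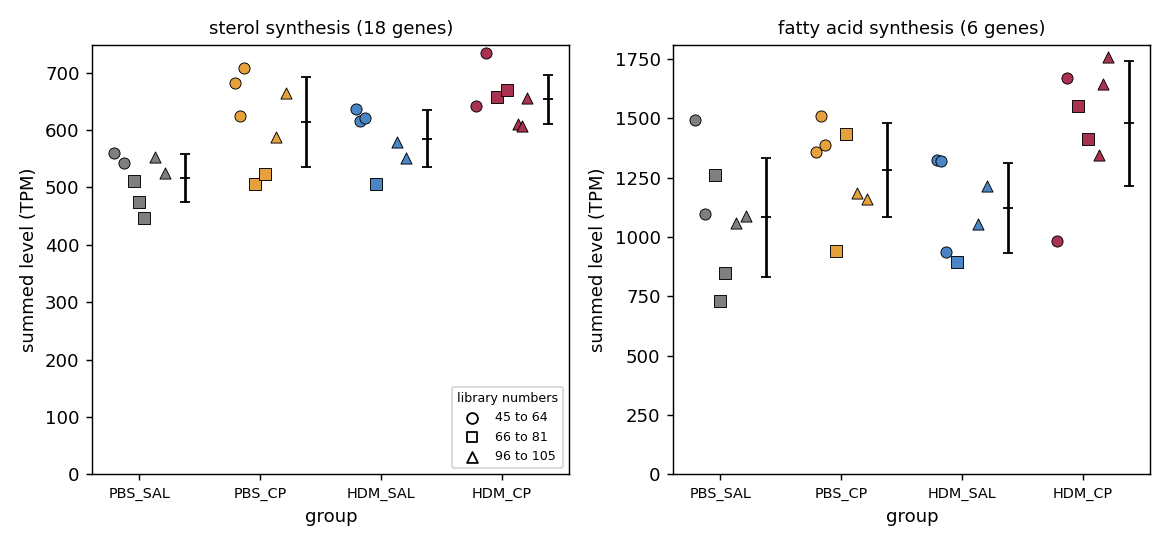
Summed level in TPM (y axis from 0) of the 18 sterol synthesis genes (left) and the 6 fatty acid synthesis genes (right) by group (x axis). Points are libraries, their shape gives the run of library numbers, and the bar is the mean with the SD. On the left, HDM_CP (607.5 to 734.6) lies above PBS_SAL (446.3 to 559.6) without overlap, and squares (libraries 66 to 81) lie lowest in PBS_SAL, PBS_CP and HDM_SAL.

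The library numbers fall into 3 runs (45 to 64, 66 to 81 and 96 to 105), and the labels do not say whether the runs are batches. Each run holds libraries of all 4 groups, but unevenly. Over the 3 runs in order, PBS_SAL had 2, 3 and 2 libraries and PBS_CP 3, 2 and 2. HDM_SAL had 3, 1 and 2, and HDM_CP 2, 2 and 3. Sums of the synthesis genes moved with the run as well as with the group. In PBS_CP they were 625.3 to 708.9 TPM in the first run, 505.8 to 524.1 TPM in the second and 588.1 to 664.8 TPM in the third. Over all genes, 12 of 24629 differed between runs in a fit with the groups (0.0487%), and among them were Idi1 (adjusted p = 0.0381) and Msmo1 (adjusted p = 0.0219). Both were lower in the second run than in the first, by 0.36 and 0.35 on the log2 scale with the group taken into account. In the same fit, 17 of the 34 genes had an unadjusted p under 0.05, as did 2338 of the 24629 genes.

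With a block for each run, 17 of the 34 genes were called in HDM_CP against PBS_SAL, 15 of them among the 16 called without it. Abca1 was lost, and Fdft1 (adjusted p = 0.038) and Nr1h3 (adjusted p = 0.048) were gained. The 14.5% of all genes called, given above, belongs to the fit without the block, and no such share is given for the fit with it. Within each run the HDM_CP difference from PBS_SAL kept its sign for all 16 called genes. These genes were called from the same libraries, so the shared sign is not independent of the calls. The share of all called genes that kept their sign is not given here. Cyp51 differed by 0.82, 0.79 and 0.35 on the log2 CPM scale in the first, the second and the third run, and Idi1 by 0.47, 0.81 and 0.40. Fasn differed by 0.22, 0.73 and 0.73 and Scd1 by 0.21, 1.08 and 0.89, and thus least in the first run. That run holds HDM_CP 45, the lowest HDM_CP library for both genes, and PBS_SAL 61, the highest PBS_SAL library for Scd1 (2019 CPM). The part of either library in this was not tested. Abca1 differed by -0.64, -0.18 and -0.22. Each run holds 2 or 3 libraries per group here, so no test was made within runs. The median over the 18 synthesis genes was 0.37, 0.49 and 0.17 in the 3 runs. For PBS_CP against PBS_SAL it was 0.27, 0.12 and 0.25, with 17, 16 and 17 of 18 positive. For HDM_SAL against PBS_SAL it was 0.27, 0.08 and 0.06, where the second run holds 1 HDM_SAL library. For HDM_CP against HDM_SAL it was 0.10, 0.35 and 0.14, and for HDM_CP against PBS_CP 0.11, 0.37 and 0.01.

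**Figure D4:**
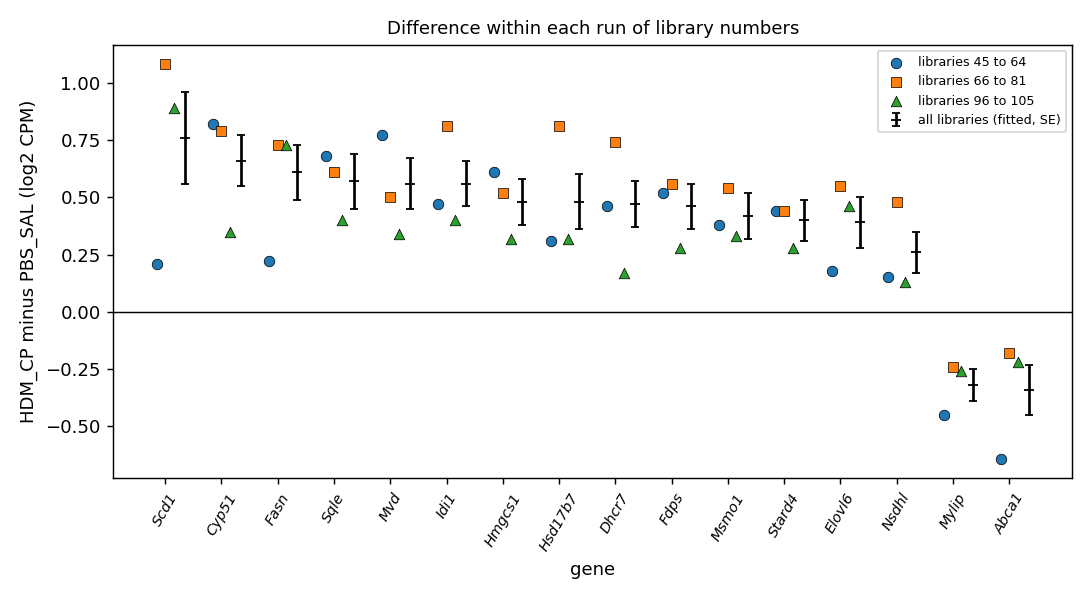
Difference between HDM_CP and PBS_SAL in mean log2 CPM (y axis) for the 16 genes called in that comparison (x axis), within each of the 3 runs of library numbers (points), beside the fitted fold change over all libraries with its SE (bar). All points of the 14 higher genes are above 0 and all points of Abca1 and Mylip are below it. The genes were called from these same libraries, so the shared sign is not independent of the calls.

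Markers of other cells moved in HDM_CP against PBS_SAL, where 8.61% of all genes were called higher and 5.88% lower. All 8 cycling cell markers rose in HDM_CP against PBS_SAL, with a median log2 fold change of 1.78, and their summed level was 21.1 to 37.4 TPM in PBS_SAL, 24.4 to 58.1 TPM in PBS_CP, 45.9 to 106 TPM in HDM_SAL and 46.7 to 140.1 TPM in HDM_CP. Of 8 markers of recruited monocytes and macrophages, 4 rose (Ccr2, Fcgr1, Trem2 and Cd68), with sums of 246 to 412 TPM in PBS_SAL and 260.4 to 743 TPM in HDM_CP. Among 8 alveolar macrophage markers 4 rose and 2 fell, and the sums overlapped, with 375 to 504 TPM and 399 to 486 TPM. Of 6 goblet cell markers, 5 rose. Of 10 alveolar type 2 markers, the surfactant protein genes Sftpd and Sftpa1 and the lamellar body gene Lamp3 rose, while the summed level was 34578 to 41133 TPM in PBS_SAL and 31801 to 40141 TPM in HDM_CP. Of the remaining lists, 1 of 5 club cell markers fell (Cyp2f2), 1 of 7 measured fat cell markers fell (Cidec), 2 of 5 fibroblast markers rose and 1 fell, and no ciliated cell, heart muscle or endothelial marker passed. The part of these cells in the levels of the 34 genes was not tested.

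The other genes of these pathways were taken from 6 lists that hold none of the 34, with 87 genes, all of which passed the filter. In HDM_CP against PBS_SAL, 19 of the 87 rose and 11 fell, beside 8.61% and 5.88% of all genes tested. The same shares stand beside the counts of each list in that comparison. The median log2 fold change of the 87 was -0.02. Among 8 companions of sterol synthesis, only Aacs, which makes acetoacetyl-CoA in the cytosol, rose (0.35 ± 0.10, adjusted p = 0.017). Among 10 sensing companions Erlin2 rose (0.13 ± 0.04, adjusted p = 0.032) and Pgrmc1 fell by 0.36 ± 0.08 (adjusted p = 0.0024).

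Uptake and movement within the cell had 7 of 16 genes higher and 2 lower. Msr1, the macrophage scavenger receptor, rose by 1.73 ± 0.26 (adjusted p = 4.1e-05), from 3.69 ± 1.06 CPM (SD, n = 7) in PBS_SAL to 12.3 ± 6.96 CPM (SD, n = 7) in HDM_CP. Npc2, which hands cholesterol out of lysosomes, rose by 0.62 ± 0.09 (adjusted p = 4.1e-05), and Soat1, which esterifies cholesterol for storage, rose by 0.41 ± 0.08 (adjusted p = 0.00039). Osbpl2, a sterol-binding protein, fell by 0.31 ± 0.06 (adjusted p = 0.00040). Msr1 and Npc2 are also expressed by macrophages, whose markers moved as given above. In the efflux and LXR list 3 of 14 rose and 2 fell. Ch25h, which makes 25-hydroxycholesterol, rose by 1.60 ± 0.22 (adjusted p = 1.9e-05), and Cyp7b1, which breaks that oxysterol down, rose by 1.23 ± 0.20 (adjusted p = 0.00011). Lpcat3, a phospholipid enzyme under LXR control, rose by 0.38 ± 0.07 (adjusted p = 0.00050), the opposite sign to Abca1 and Mylip. Rxra, the partner receptor of LXR, fell by 0.15 ± 0.03 (adjusted p = 0.0034).

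Among 21 fatty acid companions, 4 rose and 5 fell. Me1, malic enzyme, which supplies NADPH for lipid synthesis, rose by 0.93 ± 0.11 (adjusted p = 1.8e-06), from 65.9 ± 4.74 CPM (SD, n = 7) to 125.7 ± 14.6 CPM (SD, n = 7). Acsl4, which activates arachidonic acid, rose by 0.70 ± 0.09 (adjusted p = 5.6e-06). The triglyceride enzymes Lpin1 and Dgat2 fell by 0.33 ± 0.07 (adjusted p = 0.0017) and by 0.51 ± 0.12 (adjusted p = 0.0052). In the list of PPAR targets and fatty acid oxidation, 3 of 18 rose and none fell. They were the fatty acid carriers Fabp5 (0.58 ± 0.15, adjusted p = 0.0093) and Fabp4 (0.75 ± 0.22, adjusted p = 0.019) and the lipid droplet protein Plin2 (0.33 ± 0.10, adjusted p = 0.027).

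In HDM_SAL against PBS_SAL, 5 of the 87 rose and 8 fell, beside 3.19% and 2.25% of all genes tested. Me1 rose by 0.83 ± 0.11 (adjusted p = 7e-05), Acsl4 by 0.50 ± 0.09 (adjusted p = 0.0016), Ch25h by 0.98 ± 0.22 (adjusted p = 0.0097) and Npc2 by 0.36 ± 0.10 (adjusted p = 0.026). Vldlr, a lipoprotein receptor, fell by 0.44 ± 0.12 (adjusted p = 0.025), and Nr1h2, which encodes LXR-beta, fell by 0.14 ± 0.04 (adjusted p = 0.049). In HDM_CP against PBS_CP, 13 of the 87 rose and 3 fell, beside 5.60% and 2.27% of all genes tested. The 13 included Msr1 (1.30 ± 0.25, adjusted p = 0.0017) and Cyp7b1 (1.12 ± 0.20, adjusted p = 0.00080). CP against SAL called none of the 87 in PBS mice and none in HDM mice, beside 0.00812% and 0.00406% of all genes tested.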

How the data were processed

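RNA sequencing of 27 whole-lung libraries was analysed from tables the authors deposited. The submitters' processing notes name STAR (its version is not given there), StringTie 2 and the build GRCm39, and the annotation in the deposited table's name is GENCODE M33. Estimated counts as deposited are whole numbers and sum on average to 3.58 times the 20 M read pairs planned per the labels, so they were read as estimates, and counting error looks smaller in them than it is. The deposited TPM values sum to 999899 to 999999 per library and hold no depth. Genes without a symbol (310) held 0.060% of counts. No source states that strand was used in counting, so overlapping genes cannot be told apart. Positions of genes are from the deposited tables, and promoter windows are RefSeq's on GRCm38.p6.

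The estimated counts (rounded) were analysed with edgeR 4.0.16 in R 4.3.3: filterByExpr with a minimum count of 10, trimmed mean of M values scaling, 1 model of the 4 group means over all 27 libraries, two-sided robust quasi-likelihood tests of 7 comparisons, Benjamini-Hochberg adjustment over the 24629 genes, and a threshold of 0.05. There were 41 alternatives for a comparison of groups: 27 that leave out 1 library each and 14 others (median of ratios and upper quartile scaling, DESeq2 1.42.0, limma 3.58.1 voom with quality weights, fits of only the groups compared, no filter, a minimum count of 50, runs of library numbers as a block, log2(TPM + 1) and log2(TPM + 0.1) with limma at a mean TPM of at least 0.5, log2(TPM + 1) without a filter, counts divided by 4, without the 3 libraries under 60 M, and without the 3 HDM_SAL libraries with the highest mitochondrial share). The last was chosen after seeing the data. All 34 genes are named, with values by library range for those called in any comparison, the 4 with the smallest p in the others, and 7 more (Insig1, Srebf1, Srebf2, Abca1, Abcg1, Scd1, Fasn). Of the 6 wider lists and 11 marker lists, at most 4 genes per list with the smallest p are named as examples. The members, the lists and the comparison with CP averaged over HDM and PBS mice were chosen with earlier results of these data known. The values of 1 gene of the wider lists are not reported here.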

Additional observations from a re-analysis of the deposited data

Results flagged for a closer look

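Among 136 sets of values (34 genes in 4 groups), 3 held a library far from the others of its group, where chance alone flags about 1 in 20 sets. Hmgcs1 was 109 CPM in HDM_SAL 72, and the nearest HDM_SAL library was at 133 CPM. Nr1h3 was 51.1 CPM in PBS_CP 75, above the nearest PBS_CP library at 43.8 CPM. Fasn was 362 CPM in HDM_CP 45, below the nearest HDM_CP library at 543 CPM. HDM_SAL 72 had the lowest summed synthesis level of its group (506.7 TPM), and HDM_CP 45 had the lowest summed fatty acid synthesis level of its group (982 TPM).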

How the results depend on the processing

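No called gene changed sign in its comparison under any of the alternatives. Leaving out 1 library at a time gave 14 to 19 genes called in HDM_CP against PBS_SAL (16 with all libraries), 2 to 9 in HDM_SAL against PBS_SAL (5), 0 to 3 in HDM_CP against PBS_CP (2), 0 to 1 in HDM_CP against HDM_SAL (0), 0 in PBS_CP against PBS_SAL (0), 0 to 1 for CP averaged over HDM and PBS mice (0) and 0 for the interaction (0). DESeq2 gave 8 in HDM_SAL against PBS_SAL, 1 in PBS_CP against PBS_SAL, 1 in HDM_CP against HDM_SAL and 4 for CP averaged. Limma on log2(TPM + 1) without a filter gave 1 in HDM_SAL against PBS_SAL and 0 in HDM_CP against PBS_CP. The count in HDM_CP against PBS_CP was 1 in fits of only the groups compared, with log2(TPM + 1), with log2(TPM + 0.1), with no filter on low counts and without the 3 libraries under 60 M. Without the 3 HDM_SAL libraries with the highest mitochondrial share it was 0 in HDM_SAL against PBS_SAL and 1 for CP averaged, and with runs of library numbers as a block it was 2 for CP averaged. The shares of all genes called that are printed above belong to edgeR's fit of all 27 libraries, not to these alternatives. An alternative may call more or fewer of all genes as well. The cause of these changes was not tested. In HDM_CP against PBS_SAL, the 13 genes Hmgcs1, Mvd, Idi1, Fdps, Sqle, Cyp51, Msmo1, Hsd17b7, Dhcr7, Stard4, Fasn, Scd1 and Mylip were called in all 41 alternatives, Elovl6 in 40, Abca1 in 27 and Nsdhl in 25. The median over the 18 synthesis genes there ranged from 0.32 to 0.38. No paired analysis was possible because the groups share no replicate numbers. With log2 differences of 0.2 to 0.7 between groups of 6 or 7 lungs, a gene that did not pass cannot be taken as equal between groups.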
